A study of Mus musculus with 6 samples.

Results

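The genes of the Notch pathway were followed here in prostates from a mouse model of benign prostatic hyperplasia (BPH), as 10 genes chosen by name out of the 34745 genes of the deposited table. They were the receptors Notch1, Notch2, Notch3 and Notch4, the ligands Jag1, Jag2, Dll1 and Dll4, and the target genes Hes1 and Hey1. RNA had been sequenced from prostate tissue of 6 male C57BL/6 mice that were 6 to 8 weeks old on entering the study. The T + E2 group (n = 3) carried 1 subcutaneous slow-release pellet of testosterone and estradiol at a time, renewed monthly, for 12 weeks. The CON group (n = 3) had the skin incision closed without a pellet. No mouse carried a transgene or an engineered allele. The hormones reached the whole animal, and the lobes of the prostate were not separated in the labels.

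Notch receptors are membrane proteins that are activated by ligands on a neighbouring cell. Binding of a Jagged or Delta-like ligand exposes the receptor to cleavage by ADAM proteases and then by the gamma-secretase complex, which frees the intracellular domain. This domain enters the nucleus, joins the DNA-binding protein RBPJ and switches on genes such as Hes1 and Hey1, which encode basic helix-loop-helix repressors. In the prostate the pathway is known for its part in the development and the balance of basal and luminal epithelial cells, and in most organs it also acts in endothelial cells and in the smooth muscle around vessels.

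Of the 10 genes, 2 passed an adjusted p of 0.05 in the quasi-likelihood test of edgeR (Benjamini-Hochberg over all 15580 tested genes). Hey1 fell and Notch3 rose in the T + E2 group. In bulk tissue, fewer cells of a type and less RNA per cell cannot be told apart. Among all tested genes 19.6% passed this threshold, so a count of 2 of 10 was close to the background. With the further requirement of an absolute log2 fold change over 1, which defines a DEG, Hey1 was the only 1 of the 10, against 7.64% of all tested genes. For 8 of the 10 genes, all but Notch4 and Hes1, the values of the 3 T + E2 mice lay on one side of those of the 3 CON mice, as they did for 40.7% of all tested genes. The median log2 fold change of the 10 genes was 0.24, and that of all tested genes was -0.002. Each of the 10 genes passed the filter on low counts.

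**Figure D1:**
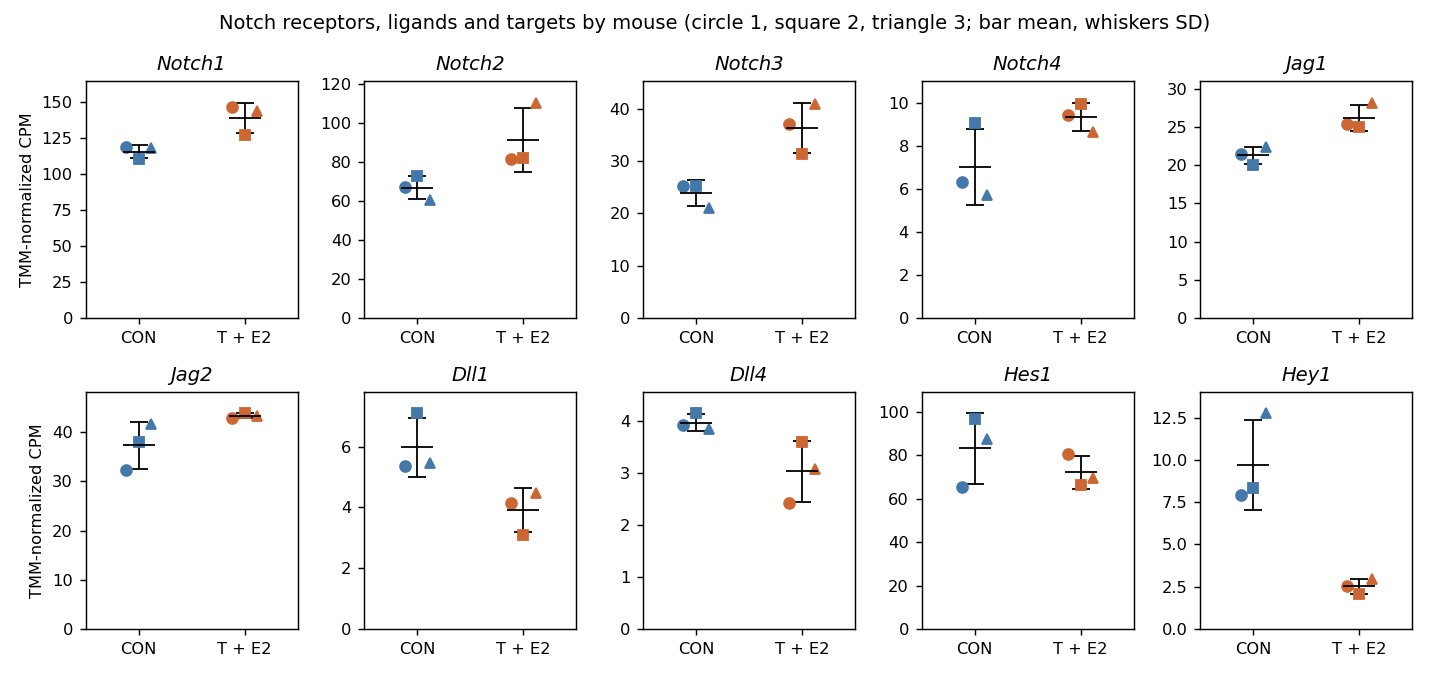
Counts scaled to a common library size with TMM factors (CPM, vertical axes from 0) of each of the 10 Notch genes in every CON and T + E2 mouse, with symbols for the replicate number, a bar for the mean and whiskers for the SD (n = 3). Hey1 stands between 7.95 and 12.8 CPM in the CON mice but between 2.07 and 2.94 CPM in the T + E2 mice, whereas the groups overlap for Notch4 and Hes1.

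The libraries held 14816146 to 16555549 counts on genes, and the 10 Notch genes together took 0.0361 to 0.046% of the counts of a mouse. A count of 3, taken as the detection limit, was worth 0.183 to 0.208 CPM. The lowest count among the 10 genes was 34, for Hey1 in T + E2 replicate 2. Intervals given for counts cover counting error only. The libraries of CON replicate 2 and T + E2 replicate 2 stood apart by transcripts for secretory proteins of the seminal vesicle, a gland that lies against the prostate. The sum of 7 such genes was 10322 CPM in CON replicate 2 and 642.7 CPM in T + E2 replicate 2. In CON replicate 2 the gene Svs4 alone had 69802 counts, and no more than 15 in the other CON mice. The profile of T + E2 replicate 2 was unlike this, with 109 counts of Svs4 and most of its sum from Svs2, at 484 CPM. Where leaving both libraries out moved a value of the 10 genes by over 1.5 times, that value is given below, as are those of Hey1 and Notch3. The labels number the mice within a group, and p-values measure the spread between these mice.

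Hey1, a repressor of the Hes and Hey family that acts downstream of Notch in vessels and in other tissues, showed the largest change of the 10 genes. It is a short gene of 3.9 kb on the minus strand (chr3:8663359-8667256 of build GRCm38). It had 7.95, 8.35 and 12.8 CPM in CON replicates 1 to 3. The T + E2 mice had 2.56, 2.07 and 2.94 CPM. Every T + E2 mouse thus lay below every CON mouse, and CON replicate 3 lay above the other 2 CON mice. The 95% counting intervals also stayed apart, with an upper bound of 3.94 CPM in T + E2 replicate 3 and a lower bound of 6.59 CPM in CON replicate 1. On the log2 scale Hey1 fell by 1.94 (standard error, SE, 0.25, 95% interval -2.52 to -1.36, adjusted p = 0.00168 by edgeR's test), which is a 3.84-fold lower level. By p-value it ranked 526 among the tested genes. Without both libraries numbered 2 the log2 fold change was -1.91 (adjusted p = 0.019 by edgeR's test). On log2(FPKM + 1), a scale that compresses low values, limma gave -0.998 (adjusted p = 0.0035), just short of the fold threshold for a DEG. The genes with the pattern most like that of Hey1 over the 6 mice were Prdx6, which encodes a peroxiredoxin, and Fcgbp, which encodes a mucin-like secreted protein. The root mean square distance of their centred log2 CPM from that of Hey1 was 0.14 and 0.175.

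Hes1, the other target, was the most abundant of the 10 genes per length and did not pass the test. This 3.4 kb gene on the plus strand (chr16:30064384-30067796) had 65.3, 96.9 and 87.6 CPM in the CON mice. Values in the T + E2 mice were 80.7, 66.4 and 69.7 CPM, within the span of the CON mice. The log2 fold change was -0.21 (SE 0.15, 95% interval -0.56 to 0.15, adjusted p = 0.382 by edgeR's test), so that a decrease of the size seen for Hey1 lay outside the interval. CON replicate 1 was the lowest of the 6 mice, and without it the log2 fold change of Hes1 was -0.35 (adjusted p = 0.0927 by edgeR's test). It was -0.08 without CON replicate 2 and -0.02 without both libraries numbered 2. The log2 ratio of Hes1 to Hey1 CPM was 3.04, 3.54 and 2.78 in the CON mice. In the T + E2 mice it was 4.98, 5.00 and 4.57. The ratio was thus higher in each T + E2 mouse, by 1.73 on average. It was formed after the values of both genes were seen and is given without a test.

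Nrarp and further genes of the Hes and Hey families were read as a list of 8, called other targets here. Whether each is a target of Notch in the prostate was not tested. Of the 5 genes that passed the filter on low counts 1 fell, where 19.6% of all tested genes were called in either direction. The median log2 fold change of these 5 genes was -0.61. Hes7, which is known from the segmentation clock of the embryo, had 16, 19 and 12 counts in the CON mice against 0, 4 and 5 counts in the T + E2 mice (log2 fold change -2.34, SE 0.64, adjusted p = 0.0387 by edgeR's test). These counts are low, and all 3 T + E2 mice were below all 3 CON mice. The call of Hes7 held without T + E2 replicate 1 but was lost without any other single mouse (adjusted p of up to 0.105 by edgeR's test). Hey2, a close relative of Hey1, had 2.38, 2.63 and 1.95 CPM against 0.623, 1.28 and 1.40 CPM, with a log2 fold change of -1.06 that did not pass (adjusted p = 0.0609 by edgeR's test). Heyl, the third gene of the Hey family and one expressed in smooth muscle, had 9.6, 8.15 and 7.42 CPM against 6.71, 3.84 and 6.01 CPM (log2 fold change -0.61, adjusted p = 0.107 by edgeR's test). The groups did not overlap for either gene, nor for Hes6 (log2 fold change -0.34, adjusted p = 0.0994 by edgeR's test). Of all tested genes 40.7% had groups that did not overlap. Nrarp, which encodes a feedback inhibitor of Notch, had overlapping groups and a log2 fold change of -0.02 (95% interval -0.55 to 0.52). Hes2, Hes3 and Hes5 had at most 4 counts in any mouse and were not tested.

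Among the receptors Notch3, which marks mural cells of small arteries in many organs, rose. The gene spans 46.1 kb on the minus strand (chr17:32120820-32166880). The CON mice had 25.3, 25.3 and 21.1 CPM. Levels in the T + E2 mice were 37, 31.4 and 40.8 CPM, all above the CON mice. The log2 fold change was 0.61 (SE 0.13, 95% interval 0.31 to 0.90, adjusted p = 0.0142 by edgeR's test), a 1.52-fold higher level. Without CON replicate 3, the lowest of the mice, the log2 fold change was 0.52 and the adjusted p of edgeR's test 0.0511, so the call was lost. Without both libraries numbered 2 it was 0.75 (adjusted p = 0.0311 by edgeR's test). Nearest to Notch3 in pattern over the 6 mice were Rab11fip1 and Tbc1d8, at root mean square distances of 0.0392 and 0.0517 on the log2 scale, whose products are partners or presumed regulators of Rab GTPases. An antisense gene, Gm17276, shares 488 exonic bases with Notch3 on the opposite strand but had at most 7 counts in a mouse, against at least 336 for Notch3.

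The other 3 receptors had positive log2 fold changes that did not pass the test. Notch1 and Notch2 are broadly expressed receptors, whereas Notch4 is largely a receptor of endothelial cells. Notch1 (chr2:26457903-26516663, minus strand) had 118.8, 110.2 and 117.8 CPM against 146.6, 127.1 and 143.5 CPM in the T + E2 group. All 3 T + E2 mice lay above the CON mice, with a log2 fold change of 0.27 (SE 0.09, adjusted p = 0.0798 by edgeR's test). Without T + E2 replicate 2 the adjusted p of Notch1 was 0.0481. Notch2 (chr3:98013527-98150361, plus strand) had 67.5, 72.8 and 60.7 CPM against 81.4, 82.3 and 110.6 CPM, again without overlap. Its log2 fold change was 0.45 (SE 0.14, adjusted p = 0.0596 by edgeR's test), and DESeq2 gave 0.45 with an adjusted p of 0.0242. T + E2 replicate 3 was the highest mouse for Notch2, and without it the log2 fold change was 0.29. For Notch4 (chr17:34564268-34588503, plus strand) the CON mice had 6.36, 9.07 and 5.72 CPM and the T + E2 mice 9.48, 9.99 and 8.68 CPM. The CON replicate 2 value lay among those of the T + E2 mice, and the log2 fold change was 0.41 (95% interval -0.05 to 0.87, adjusted p = 0.184 by edgeR's test). Without CON replicate 2 it was 0.63 (adjusted p = 0.0546 by edgeR's test). Exons of Notch1 share 1068 bases with the opposite-strand gene 0610009E02Rik, which had 21 to 71 counts.

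The promoters of the 4 receptors are shown to compare the sequence beside their start sites, and nothing about their fold changes is drawn from it. The windows are the 100 bases before the RefSeq start on build GRCm38.p6, read 5′ to 3′ on the strand of the gene, and capitals mark the GC box GGGCGG or its reverse complement CCGCCC, a site of Sp1-type factors. The RefSeq start of Notch1 lies inside the span that the deposited table gives for the gene. Promoter entries were matched by symbol for 8 of the 10 genes, all but Hes1 and Hey1.
Notch1 at chr2:26503823-26503922, minus strand: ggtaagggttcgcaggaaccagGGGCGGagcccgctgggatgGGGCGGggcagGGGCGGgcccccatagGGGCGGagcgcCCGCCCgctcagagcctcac
Notch2 at chr3:98013438-98013537, plus strand: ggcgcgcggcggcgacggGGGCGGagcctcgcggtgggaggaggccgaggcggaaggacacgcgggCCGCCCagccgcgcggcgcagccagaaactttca
Notch3 at chr17:32166891-32166990, minus strand: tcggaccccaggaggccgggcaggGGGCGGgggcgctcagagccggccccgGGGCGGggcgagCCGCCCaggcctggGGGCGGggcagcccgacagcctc
Notch4 at chr17:34564195-34564294, plus strand: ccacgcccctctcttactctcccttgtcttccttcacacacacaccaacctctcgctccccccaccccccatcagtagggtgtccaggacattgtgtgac

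The stretches of Notch1, Notch2 and Notch3 hold 5, 2 and 4 GC boxes and 77 to 85% G and C, and that of Notch4 holds none and 59%. In windows from 250 bases before to 50 bases after the start, 35.7% of all 32851 RefSeq promoters hold a GC box on either strand. In these longer windows Notch1 and Jag2 hold 5 each, Notch2 holds 7, Notch3 holds 4 and Dll4 holds 2, whereas Notch4, Jag1 and Dll1 hold none. The core TGGGAA of the site bound by RBPJ, or its reverse complement TTCCCA, is found in 25.6% of them and in none of the 9 windows of the 8 Notch genes. This says only that these letters are not in these windows.

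Counts cannot be compared between genes of different length, so levels were set side by side as FPKM, which the authors had divided by gene length. The FPKM of Jag2 implied a length of 4054 bases, where its exons in GENCODE M21 cover 6965 bases. For Notch4 these were 12193 and 8061 bases, and for Dll1 6044 and 4219 bases. For Hes1 they were 2860 and 2037 bases. For Hey1 they were 4694 and 3265 bases, and the implied length exceeds the 3898 bases that the whole gene spans. Shares and order between genes thus depend on the lengths used, and they were not computed with the GENCODE lengths. Notch1 made up 43.7, 40.1 and 46.6% of the summed FPKM of the 4 receptors in the CON mice. In the T + E2 mice its share was 42.3, 40 and 36.7%, and the ranges overlapped. The share of Notch3 was 18.3, 18.1 and 16.5% in the CON mice against 21, 19.4 and 20.5% in the T + E2 mice. Notch3 was the 1 receptor whose share did not overlap between the groups, with a difference of 2.69 percentage points (exact two-sided permutation test, p = 0.1, the smallest p that 3 against 3 mice allow). With Benjamini-Hochberg adjustment over the 4 receptors, the p of this permutation test was 0.4. Notch2 held 34 to 37.5% in the CON mice against 33.2 to 39.9% in the T + E2 mice, and Notch4 held 2.88 to 4.29% over all 6 mice. The summed FPKM of the 4 receptors was 15.8 to 17.8 in the CON mice against 19.9 to 25 in the T + E2 mice.

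**Figure D2:**
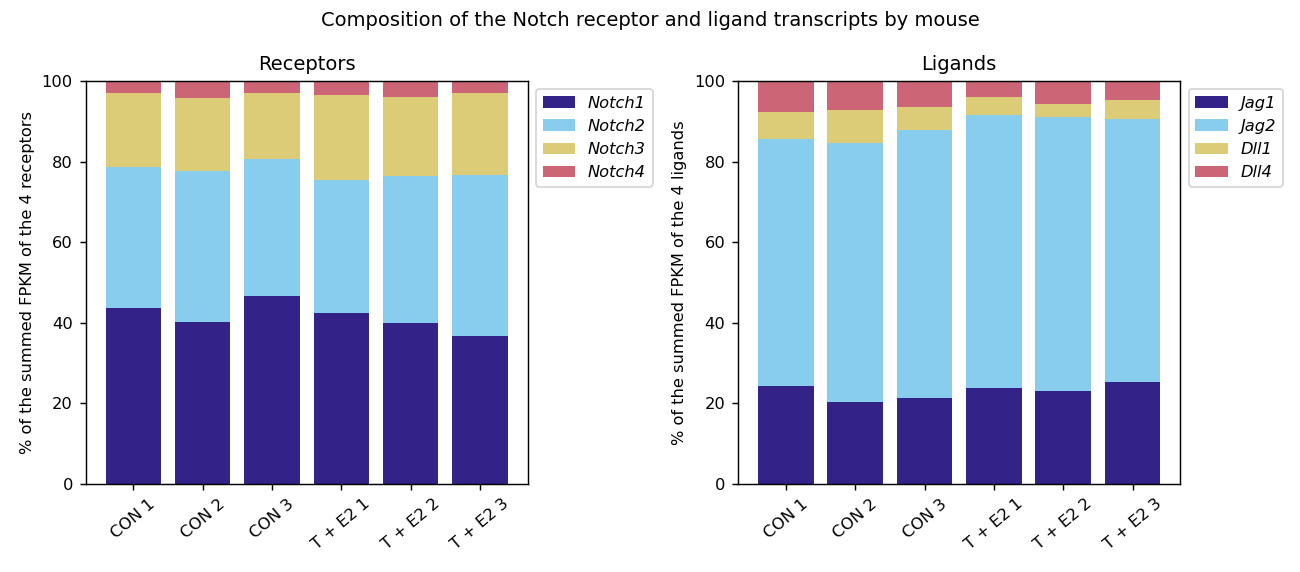
Stacked bars give, for each mouse, the percentage of the summed FPKM of the 4 Notch receptors (left) and of the 4 ligands (right) that each gene contributes. The Notch3 part is 16.5 to 18.3% in CON and 19.4 to 21% in T + E2 mice, and the Dll1 and Dll4 parts are smaller in the T + E2 mice.

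None of the 4 ligands passed the test. The Jagged genes had positive and the Delta-like genes negative log2 fold changes. The groups did not overlap for any of the 4, nor did they for 40.7% of all tested genes. Jag1 (chr2:137081456-137116644, minus strand), a ligand of smooth muscle and epithelium, had 21.5, 20 and 22.3 CPM in the CON mice against 25.3, 25 and 28.2 CPM in the T + E2 mice. Its log2 fold change was 0.30 (SE 0.10, adjusted p = 0.0745 by edgeR's test). Jag2 (chr12:112908590-112929495, minus strand), known from developing epithelia and limb, had 32.3, 38 and 41.7 CPM against 42.8, 43.8 and 43.2 CPM. The highest CON mouse came close to the T + E2 mice, and the log2 fold change was 0.21 (95% interval -0.04 to 0.46, adjusted p = 0.206 by edgeR's test). Without CON replicate 1, the lowest mouse, it was 0.12.

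Dll1 (chr17:15367354-15376872, minus strand), the ligand best known from somites and neural precursors, had 5.36, 7.10 and 5.47 CPM in the CON mice against 4.15, 3.11 and 4.47 CPM in the T + E2 mice. The log2 fold change was -0.61 (SE 0.22, 95% interval -1.12 to -0.11, adjusted p = 0.089 by edgeR's test). Without both libraries numbered 2 it was -0.33 (adjusted p = 0.467 by edgeR's test). The full-sample size equalled that of Notch3, but Dll1 rested on 51 to 108 counts a mouse and Notch3 on 336 to 612. The opposite-strand gene A930024N18Rik shares 867 exonic bases with Dll1 and had 3 to 11 counts. Dll4 (chr2:119325784-119335962, plus strand), the ligand of endothelial tip cells and arteries, had 3.91, 4.14 and 3.84 CPM against 2.42, 3.59 and 3.07 CPM. All T + E2 mice were below the CON mice, and the log2 fold change was -0.38 (95% interval -0.89 to 0.12, adjusted p = 0.25 by edgeR's test). Without T + E2 replicate 1, the lowest mouse, it was -0.25.

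By the lengths the authors used, Jag2 was the main ligand transcript, and its share rests on the short length given above. It held 61.2 to 66.6% of the summed FPKM of the 4 ligands in the CON mice against 65.3 to 68% in the T + E2 mice. Jag1 held 20.2 to 24.2% and 23 to 25.3%. The share of Dll1 was 6.83, 8.07 and 5.85% in the CON mice against 4.41, 3.23 and 4.53% in the T + E2 mice. That of Dll4 was 7.68, 7.26 and 6.33% against 3.97, 5.76 and 4.80%. Both Delta-like shares were lower in every T + E2 mouse than in every CON mouse, with differences of -2.86 and -2.25 percentage points (exact two-sided permutation test, p = 0.1 for each, the smallest possible). With Benjamini-Hochberg adjustment over the 4 ligands, the p of this permutation test was 0.2 for each. The summed FPKM of the 2 Delta-like genes was 1.87 to 2.29 in the CON mice against 1.25 to 1.54 in the T + E2 mice.

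**Figure D3:**
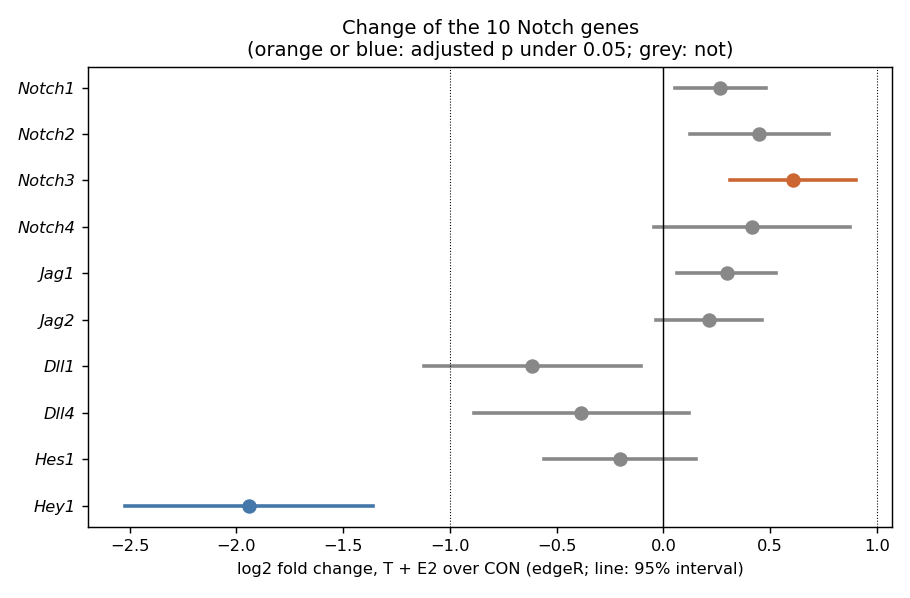
Log2 fold change of T + E2 over CON (horizontal axis) for each of the 10 Notch genes, with points for the edgeR estimate and lines for the 95% interval, coloured where the adjusted p was under 0.05 and grey where it was not. Hey1 lies at -1.94 and Notch3 at 0.61, and the intervals of Notch4, Jag2, Dll4 and Hes1 reach across 0.

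In order of FPKM, the CON group had Hes1 first with 29.5 ± 5.78 (SD, n = 3), followed by Jag2 with 9.32 ± 1.09, Notch1 with 7.39 ± 0.256 and Notch2 with 6.06 ± 0.644. Their FPKM ranges did not overlap between neighbours, but the place of Jag2 depends on the length the authors used. Jag1 with 3.16 ± 0.126 and Notch3 with 3.01 ± 0.351 came next and overlapped. Hey1 was seventh with 2.08 ± 0.536, its range reaching into that of Notch3, ahead of Dll4 with 1.02 ± 0.0562, Dll1 with 1.00 ± 0.175 and Notch4 with 0.586 ± 0.156. In the T + E2 group the first 4 places were unchanged, at 24.9 ± 1.97, 10.5 ± 0.388, 8.66 ± 0.623 and 8.07 ± 1.66, and Notch1 and Notch2 now overlapped. Notch3 with 4.47 ± 0.637 stood before Jag1 with 3.79 ± 0.342, again with overlap. Dll4 with 0.764 ± 0.162 and Notch4 with 0.758 ± 0.0484 followed and overlapped. Hey1 was last with 0.53 ± 0.0979, and its range overlapped that of Dll1 (0.638 ± 0.12). In both groups the places of Hey1, Dll1 and Notch4 also depend on the lengths the authors used. That of Hey1 is longer than the gene.

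Outside the 10 genes, a list of 64 pathway genes was read from the same fit. Of the 60 that could be tested, 8 rose and 9 fell, or 28.3% against 19.6% of all tested genes, with a median log2 fold change of -0.08. Under the replicate block and without CON replicate 2, CON replicate 3 or T + E2 replicate 2, 10 were called, where 12.2 to 14% of all tested genes were. Without both libraries numbered 2 the number was 5, where 8.65% of all tested genes were called, so that this count was close to the background. These 5 were Ncstn, Psen2, Furin, Gxylt2 and Tle1.

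Genes for the cleavage of the receptors contributed 6 of the 8 rises, from 10 listed. Among all 15580 tested genes 1620 rose, and 19.6% were called in either direction. Gamma-secretase, the protease that frees the intracellular domain of Notch and also cuts many other membrane proteins, is made of nicastrin, a presenilin, an APH1 protein and PEN2. Ncstn, which encodes nicastrin, had 176.8, 188.6 and 195.7 CPM in the CON mice against 492, 456.1 and 512.1 CPM in the T + E2 mice. Every T + E2 value was over the highest CON value, with a log2 fold change of 1.38 (SE 0.10, adjusted p = 7.45e-05 by edgeR's test), a 2.60-fold higher level. Psen2, for presenilin 2, rose from 84.6, 75.9 and 78.7 CPM to 200.6, 160.7 and 160.2 CPM (log2 fold change 1.12, SE 0.11, adjusted p = 0.000538 by edgeR's test). Ncstn and Psen2 were DEGs.

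Of the other subunits described here, the APH1 genes differed among themselves. Aph1c rose, with a log2 fold change of 0.70 (adjusted p = 0.0239 by edgeR's test), and Aph1b with 0.53 (adjusted p = 0.0288). Aph1b and Aph1c are close copies of each other, and reads could have been divided between them, so both values are uncertain. Aph1a, the most abundant of the 3 by FPKM, had a log2 fold change of -0.21 (adjusted p = 0.208 by edgeR's test). Psenen, which encodes PEN2, had 4.57, 6.24 and 5.97 CPM against 5.88, 3.84 and 3.94 CPM and a log2 fold change of -0.30 (adjusted p = 0.409 by edgeR's test). The call of Aph1b or Aph1c was lost without CON replicate 2, CON replicate 3, T + E2 replicate 1 or T + E2 replicate 2, with adjusted p of up to 0.0934 and 0.0791 by edgeR's test.

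**Figure D4:**
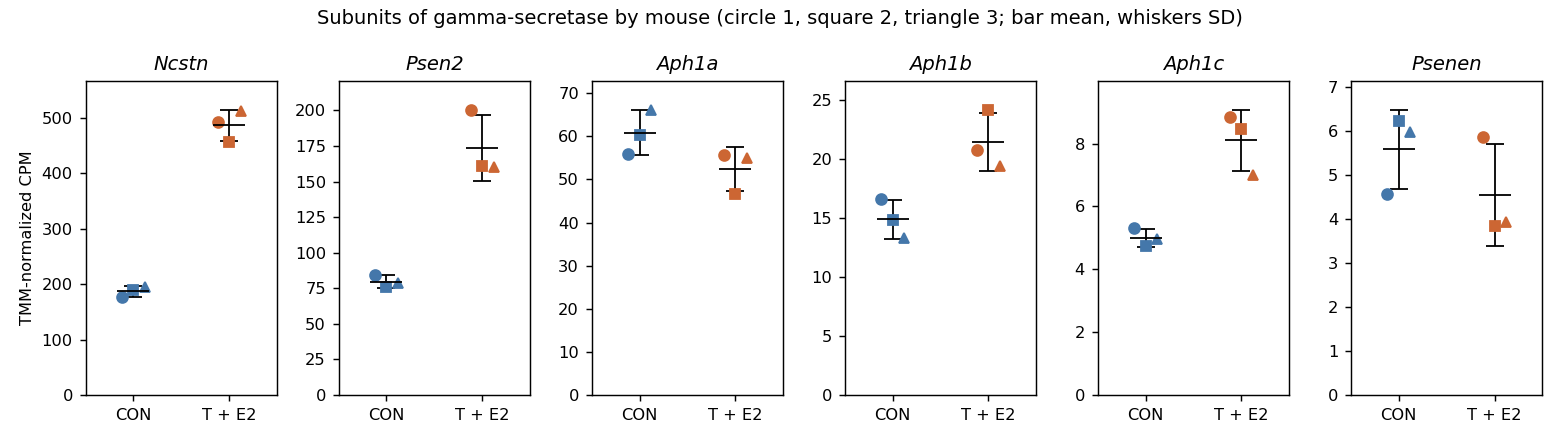
TMM-normalized CPM (vertical axes from 0) of 6 genes for subunits of gamma-secretase in every mouse, with the mean and SD (n = 3) of each group. Ncstn and Psen2 lie higher in all T + E2 mice, at 456.1 to 512.1 and 160.2 to 200.6 CPM, while the groups overlap for Psenen.

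Furin, whose product matures the Notch precursor in the secretory pathway, had 163, 140.8 and 152.1 CPM against 243.2, 205.5 and 230.5 CPM in the T + E2 group. The groups did not overlap, and the log2 fold change was 0.57 (SE 0.10, adjusted p = 0.00615 by edgeR's test). Of the ADAM proteases that cut the ligand-bound receptor, Adam17 passed narrowly (log2 fold change 0.34, adjusted p = 0.0498). It kept its call without T + E2 replicate 3, but without any other single mouse it did not pass (adjusted p of up to 0.141 by edgeR's test). Adam10 had a log2 fold change of 0.02 (95% interval -0.35 to 0.40).

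The fringe enzymes Lfng, Mfng and Rfng, which tune the response of a receptor to Jagged and Delta-like ligands, did not pass. Of the 9 genes listed for fringes and glycosylation, 1 fell, where 19.6% of all tested genes were called in either direction. Gxylt2, a xylosyltransferase of the EGF repeats of Notch, had 27.2, 22.1 and 21 CPM in the CON mice against 12.2, 9.25 and 8.01 CPM in the T + E2 mice. Its groups were well apart, with a log2 fold change of -1.26 (SE 0.18, adjusted p = 0.00257 by edgeR's test). None of the 3 tested genes listed as other ligands passed, and Dll3 had at most 3 counts in any mouse.

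Among 15 genes for ubiquitin transfer and endocytosis, 2 rose and 4 fell, where 19.6% of all tested genes were called in either direction. Ubiquitin ligases of the Neuralized type act on ligands, and those of the Deltex type act on receptors. Neurl1b had 5.50, 6.05 and 6.35 CPM against 3.32, 2.62 and 2.00 CPM (log2 fold change -1.17, SE 0.23, adjusted p = 0.0106 by edgeR's test) and was a DEG. Neurl1a fell by 0.99 on the log2 scale (adjusted p = 0.0203 by edgeR's test). Dtx1 fell from 7.62, 6.97 and 7.04 CPM to 4.29, 2.74 and 3.94 CPM, by 0.98 on the log2 scale (SE 0.21, adjusted p = 0.0154 by edgeR's test). Dtx3l fell by 0.61 (adjusted p = 0.0049). The rises were those of Itch and Dtx4, with log2 fold changes of 0.36 and 0.35 (adjusted p = 0.0438 and 0.0321 by edgeR's test); these 2 were named after their values were seen. Neurl1a was not called without CON replicate 1 or CON replicate 3 (adjusted p of up to 0.056 by edgeR's test). Itch lost its call without CON replicate 2, CON replicate 3, T + E2 replicate 1 or T + E2 replicate 2, and Dtx4 without any single mouse other than T + E2 replicate 1, and their adjusted p reached 0.133 and 0.0991. The ligand-activating genes Mib1 and Mib2 had log2 fold changes of -0.23 and -0.17 and did not pass.

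In the nuclear complex, 3 of 18 genes fell and none rose, no larger a share than the 19.6% called among all tested genes. Tle1, a corepressor of the Groucho family to which Hes and Hey proteins bind, had 116.8, 105 and 123 CPM in the CON mice against 68.7, 54.3 and 64.6 CPM in the T + E2 mice. The log2 fold change was -0.88 (SE 0.12, adjusted p = 0.00183 by edgeR's test), and no T + E2 mouse reached the CON range. The acetyltransferase gene Kat2a fell, with a log2 fold change of -0.50, as did the coactivator gene Maml3 with -0.49 (adjusted p = 0.00993 and 0.0251 by edgeR's test). Maml3 lost its call without CON replicate 1, CON replicate 2, T + E2 replicate 1 or T + E2 replicate 2 (adjusted p of up to 0.0841). Rbpj, the DNA-binding partner of all 4 receptors, had 62.8, 56.7 and 50.4 CPM against 63.4, 67.3 and 62.1 CPM. Its groups overlapped, and its log2 fold change was 0.18 (95% interval -0.06 to 0.42, adjusted p = 0.252 by edgeR's test).

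**Figure D5:**
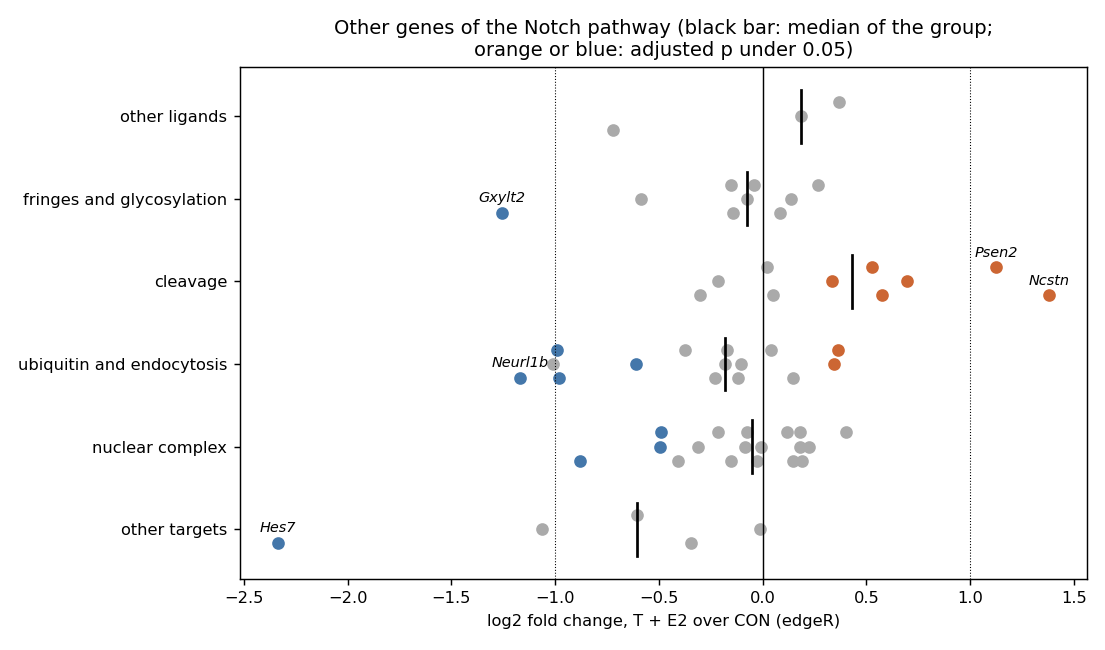
Log2 fold changes of T + E2 over CON for the 60 tested pathway genes outside the 10 Notch genes, by role, with a black bar for the median of each role and colour where the adjusted p was under 0.05. The cleavage genes have a median of 0.43 and the other targets one of -0.61, and DEGs are named.

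Markers of the cell types that a prostate can hold were read beside the Notch genes. Beside each count of called markers below stands the share called among all tested genes, 19.6% in either direction. Of 14 endothelial markers 1 rose, Vwf, for the clotting protein von Willebrand factor (log2 fold change 0.65, adjusted p = 0.0233 by edgeR's test). Their summed level was 202.6 to 267.1 CPM in the CON mice against 245.2 to 278.6 CPM in the T + E2 mice. Set against the mean log2 CPM of this list in the same mouse, Hey1 was still lower in every T + E2 mouse, with a mean difference of -1.91. Of 12 markers of mural cells and smooth muscle, 1 rose and 5 fell, and their sum was 4253 to 5220 CPM against 3725 to 4049 CPM. Among them Cspg4 and Pdgfrb, genes of pericytes, had log2 fold changes of -0.86 and -0.73 (adjusted p = 0.0052 and 0.00721 by edgeR's test), and Abcc9, for a potassium channel subunit of mural cells, had 0.89 (adjusted p = 0.0019). Relative to the mean of this list Notch3 was higher by 0.85 and Hey1 lower, at -1.62, on the log2 scale.

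None of 8 fibroblast markers passed. Basal epithelial markers included 1 rise, of the basal transcription factor gene Trp63 (log2 fold change 0.57, adjusted p = 0.0108 by edgeR's test), and 1 fall, of the neurotrophin receptor gene Ngfr (-0.92, adjusted p = 0.0446), among 8, and their sum was 315.2 to 401.7 CPM against 373.3 to 447.8 CPM. Of 8 luminal epithelial markers 2 rose and 1 fell. Epcam, for an epithelial adhesion protein, had a log2 fold change of 1.18 and Krt18, a luminal keratin gene, one of -0.54 (adjusted p = 0.000175 and 0.00704 by edgeR's test). The summed level of the luminal list was 2731 to 3155 CPM against 3241 to 3289 CPM. Epcam alone had 387 to 421 CPM against 873 to 982 CPM, while the median log2 fold change of the list was -0.12. Genes of prostate secretion were present in every mouse, at a sum of 33156 to 46138 CPM in the CON and 5550 to 7588 CPM in the T + E2 mice, where Pbsn and Tgm4 fell (log2 fold change -3.29 and -2.91, adjusted p = 2.45e-05 and 0.000158 by edgeR's test). Of 7 tested leukocyte markers 1 rose, Itgam, an integrin gene of myeloid cells, and their sum was 80.4 to 122.8 CPM against 117.7 to 155.5 CPM. Relative to the mean of the leukocyte list the groups overlapped for Notch3, with a mean difference of 0.13, and did not for Hey1, with -2.34. Against the mean of the basal epithelial list the groups also overlapped for Notch3 (mean difference 0.64) and did not for Hey1 (-1.825). No marker of any list was at 0 in all mice. The part of these shifts in the values of Hey1 and Notch3 was not tested.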

How the data were processed

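The authors deposited 1 table with whole-number counts per gene for each mouse and FPKM values, which equal these counts divided by gene length and library total. The labels name TopHat, Bowtie2 and HTSeq; versions, annotation and strand setting are not given in the sources used here. Coordinates are those of the table, on build GRCm38: 27763 of 34745 genes have the same start and end in GENCODE M21. Every column belongs to 1 mouse. Counts were tested in R 4.3.3 with edgeR 4.0.16 (filterByExpr with minimum count 10 and total 15, TMM factors 0.956 to 1.027, quasi-likelihood test, Benjamini-Hochberg over 15580 genes). Standard errors are the log2 fold change over the root of F. Alternatives used limma 3.58.1 (log2 of FPKM plus 0.1 or 1, genes at 0.1 FPKM or more in 3 mice), DESeq2 1.42.0, other scalings and filters, a replicate block and omitted mice. The code was tested on simulated data. Promoters came from RefSeq (GRCm38.p6). Genes named by rule were the 10 members, up to 4 called genes per pathway list, up to 3 per marker list, and the 2 genes nearest in pattern to each called member by distance of log2 CPM (prior count 2); all other pathway genes were named after their values were seen. The GC box motif was added after the values were seen. Members and lists were chosen with earlier results of these data known. 1 gene of the pathway list is counted but not reported here by name.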

Additional observations from a re-analysis of the deposited data

How the results depend on the processing

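Each of the 10 Notch genes kept its direction under all alternatives in which it could be tested, 14 or 15 for each gene, and Hey1 was called in 15 of 15 and Notch3 in 14 of 15. Under limma on log2(FPKM + 1) no Notch gene was a DEG (0 against 1), since the pseudocount compresses low values. When 1 mouse was omitted, the number of Notch genes called ranged from 1, without CON replicate 3, to 3, without T + E2 replicate 2. Of all tested genes 12.2% were called without CON replicate 3 and 12.5% without T + E2 replicate 2. DEGs among the Notch genes stayed at 1. The number of other pathway genes called ranged from 10 to 17 with 1 mouse omitted. It was 10 with the replicate block and 5 without both libraries numbered 2, an alternative chosen after seeing the data that leaves 4 mice. Of all tested genes 12.2 to 13.4% were called in the fits with 10 and a mouse omitted, and 17.2% in that with 17, without T + E2 replicate 3. These shares were 14% with the block and 8.65% without both libraries. The genes called with the block or without both libraries were among the 17. Correlations across genes between same-numbered mice of the groups were -0.0516, 0.0275 and 0.0463, and those of differently numbered mice ran from -0.182 to 0.137. With 3 mice a group, these values cannot show whether the number pairs the mice. Both libraries numbered 2 held transcripts of the seminal vesicle. With the block, 2174 genes were called in all against 3061.

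With single mice omitted, the difference in share (T + E2 minus CON, percentage points) ranged from -5.51 to -2.26 for Notch1, from -0.615 to 2.76 for Notch2, from 2.10 to 3.14 for Notch3 and from -0.207 to 0.514 for Notch4. Notch2 changed sign without T + E2 replicate 3 (-0.615), and Notch4 without CON replicate 1 (-0.113), CON replicate 3 (-0.159) or T + E2 replicate 2 (-0.207). The ligand shares ranged from 1.35 to 3.37 for Jag1, from 1.49 to 4.18 for Jag2, from -3.39 to -2.29 for Dll1 and from -2.71 to -1.81 for Dll4, and the Hes1 to Hey1 ratio from 1.56 to 1.94. Notch4, Dll1, Dll4 and Hey1 rest on at most 203 counts a mouse, which limits their precision.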
